A study of Arabidopsis thaliana with 128 samples.

Results

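PHYA, PHYB, PIF1, PIF3, PIF4, PIF5, PIF7, HFR1 and HY5 are Arabidopsis thaliana genes that relay light and temperature to growth, and they are described here in every library of a heat-stress RNA-seq series. They were chosen by locus identifier, not by any measured value: AT1G09570 (PHYA), AT2G18790 (PHYB), AT2G20180 (PIF1), AT1G09530 (PIF3), AT2G43010 (PIF4), AT3G59060 (PIF5), AT5G61270 (PIF7), AT1G02340 (HFR1) and AT5G11260 (HY5). All 9 were found among the 29417 nuclear genes of a table with 60886 features, and 1101 of their 1152 values over all libraries were above 0. The study asked how shoot meristem stem cells respond to heat, and whether a response is still seen weeks later.

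All plants carried the stem cell reporter pCLV3::H2B-mCherry. Those called wt had it in Col-0, those called poliv were nrpda-3 mutants in a subunit of RNA polymerase IV of RNA-directed DNA methylation, and those called ddm1 were ddm1-10 mutants in a chromatin remodeler that maintains DNA methylation. Heat-stressed plants (H) were kept at 37 °C for 1 day and mock-treated controls (C) were not, and harvest was right after the stress at day 7, or at day 28 after 21 days of recovery. The labels give short days for growth on soil and the study's methods long days, so the day length, on which PIF, HY5 and evening complex transcripts depend, is not settled here. Sorted stem cell nuclei (S) were profiled at both ages in all 3 genotypes, sorted non-stem nuclei (N) at day 7 in wt, above-ground seedlings (T) at day 7 in all 3 genotypes, and dissected inflorescence meristems (I) at day 28 in all 3 genotypes, so that wt HS7 is heat-stressed wt stem cell nuclei at day 7. Groups held 8 libraries for stem nuclei at day 7, 6 for non-stem nuclei, and 3 or 4 for the other types. The reporter is driven by a CLV3 promoter, each mutant is 1 insertion allele, and nothing in the labels says that replicates came from separate plants or sorts, so p-values measure the spread between libraries, which may be technical.

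Phytochromes are red and far-red light receptors, and phytochrome B also reverts to its inactive form faster when it is warm. Active phytochromes drive the degradation of PIFs (phytochrome-interacting factors), bHLH transcription factors that bind G-box and related E-box motifs and promote growth, among them elongation in warm conditions. HFR1 is an atypical bHLH protein that binds PIFs and keeps them from DNA, and HY5 is a bZIP factor that promotes seedling development in light and binds many of the same promoters.

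PIF4 and PIF5, which fell furthest under heat, and PHYB, the photoreceptor that acts on them, are shown by the 250 bases just before the RefSeq gene start (assembly TAIR10.1; the deposited table was made on TAIR10). Capitals mark each G-box, CACGTG, the motif that PIFs and HY5 bind. The PIF4 window is chr2:17885851-17886100 on the plus strand, the PIF5 window chr3:21830838-21831087 on the minus strand and the PHYB window chr2:8139506-8139755 on the plus strand. All 3 windows lie upstream of the annotated gene and hold no other gene.
PIF4: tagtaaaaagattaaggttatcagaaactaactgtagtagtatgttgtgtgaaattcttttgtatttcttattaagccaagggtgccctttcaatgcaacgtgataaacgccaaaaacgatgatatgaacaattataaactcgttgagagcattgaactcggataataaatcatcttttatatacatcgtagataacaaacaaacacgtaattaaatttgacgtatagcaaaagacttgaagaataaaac
PIF5: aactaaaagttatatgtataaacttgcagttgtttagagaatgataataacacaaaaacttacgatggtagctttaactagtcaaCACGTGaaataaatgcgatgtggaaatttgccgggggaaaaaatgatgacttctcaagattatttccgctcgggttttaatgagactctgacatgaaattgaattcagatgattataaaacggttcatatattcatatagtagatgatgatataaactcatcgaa
PHYB: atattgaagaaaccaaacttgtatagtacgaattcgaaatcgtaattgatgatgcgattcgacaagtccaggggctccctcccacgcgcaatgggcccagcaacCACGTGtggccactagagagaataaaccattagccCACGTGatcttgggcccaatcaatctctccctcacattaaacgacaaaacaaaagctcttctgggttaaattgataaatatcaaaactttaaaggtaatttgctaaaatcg
PHYB had 2 G-boxes, which began 146 and 111 bases before the gene, PIF5 had 1, which began 165 bases before it, and PIF4 had none in this window. A G-box on either strand was in the windows of 2 of the 9 genes and in 6.49% of the windows of 27443 protein-coding genes. The E-box CATGTG or CACATG was in 1 of 9, HY5 (beginning 138 bases before the gene), and in 11.1% of all windows. The core of a heat shock element, TTCNNGAA or GAANNTTC, was in 0 of 9 and in 16.1% of all windows. Both strands were searched throughout, the G-box and E-box letters differ so that no site counts as both, and a match describes the letters only.

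The values below are normalised read counts, that is, read counts divided by a size factor for each library. Depth was 1853992 to 5813317 reads per library in stem nuclei and 3401349 to 5253212 in non-stem nuclei at day 7, 8614232 to 17611137 in seedlings, 2615204 to 6999950 in stem nuclei at day 28 and 7456669 to 15016702 in meristems, in the 125 libraries whose reads could be recovered. The heat shock protein gene HSP101 averaged 1501 in wt HT7 and 15.9 in wt CT7, but 165 in wt HS7 and 96.3 in wt CS7. It averaged 222 in wt HN7 and 81.2 in wt CN7, so its rise was small in both kinds of sorted nuclei. Heat-stressed stem and non-stem nuclei did not differ in it (-0.46 ± 0.25, limma adjusted p = 0.393). In wt stem nuclei 1 of 3 heat check genes was called. Besides HSP101 these were HSP22.0, at 2258 in wt HS7 and 0.113 in wt CS7, and HSFA2, at 26 and 20.4. DDM1 averaged 0.985 in ddm1 CT7 but 218 in ddm1 CS7, against 82.8 in wt CS7, so the libraries labelled ddm1 CS7 do not show lost transcript, which whole-gene counts cannot test for an insertion allele. The same holds for poliv, where NRPD1, a gene for a subunit of RNA polymerase IV, averaged 139 in CS7 and 12.2 in CT7, against 82.5 in wt CS7 and 9.62 in wt CT7, and was not called lower at either age. A gene was called higher or lower when its limma adjusted p was below 0.05 and its log2 fold change on log2(normalised count + 1) was beyond 1 in size. By this rule 2772 features were higher in ddm1 CS7 than in wt CS7, of which 915 were nuclear genes. In ddm1 CT7 against wt CT7 there were 1133, of which 168 were nuclear genes. The median nuclear gene moved by -0.34, -0.31 and -0.28 in wt, poliv and ddm1 stem nuclei under heat, by -0.21 in non-stem nuclei, and by -0.17, -0.15 and -0.18 in wt, poliv and ddm1 seedlings, and fold changes are read against that shift. Scaling the libraries to equal sums over nuclear genes instead turned the medians in seedlings to 0.91, 0.69 and 0.80.

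Levels can be set between genes only per kb of the longest transcript. On that scale PIF5 was the highest of the 9 in wt controls of all 5 sample types. It averaged 1351 ± 876 (SD, n = 4) per kb in seedlings, 491 ± 64.5 (n = 8) in stem nuclei and 682 ± 48.7 (n = 6) in non-stem nuclei at day 7. PIF4 was next in CS7 and CT7, at 146 ± 31 and 112 ± 19.7 per kb, and its libraries lay below all PIF5 libraries in each. In CS7, PIF7 (91.4), PIF1 (90.2) and PIF3 (69.4) followed with overlapping ranges, then PHYA at 40.1, PHYB at 21.2 and HFR1 at 17.6, and HY5 was lowest at 9.63 ± 4.96. PHYB (11.1), HFR1 (12.6) and HY5 (13.9) overlapped at the bottom in CT7. PIF7 was lowest at day 28, with 7.37 ± 2.78 per kb in CS28, where it overlapped PIF3 (8.07) and PIF4 (19.8), and 0.358 ± 0.314 in CI28, whereas HY5 ranked 2 of 9 in CI28 with 48.3 ± 19.1. HY5 there overlapped HFR1, next in order at 41.7 ± 11.8.

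**Figure D1:**
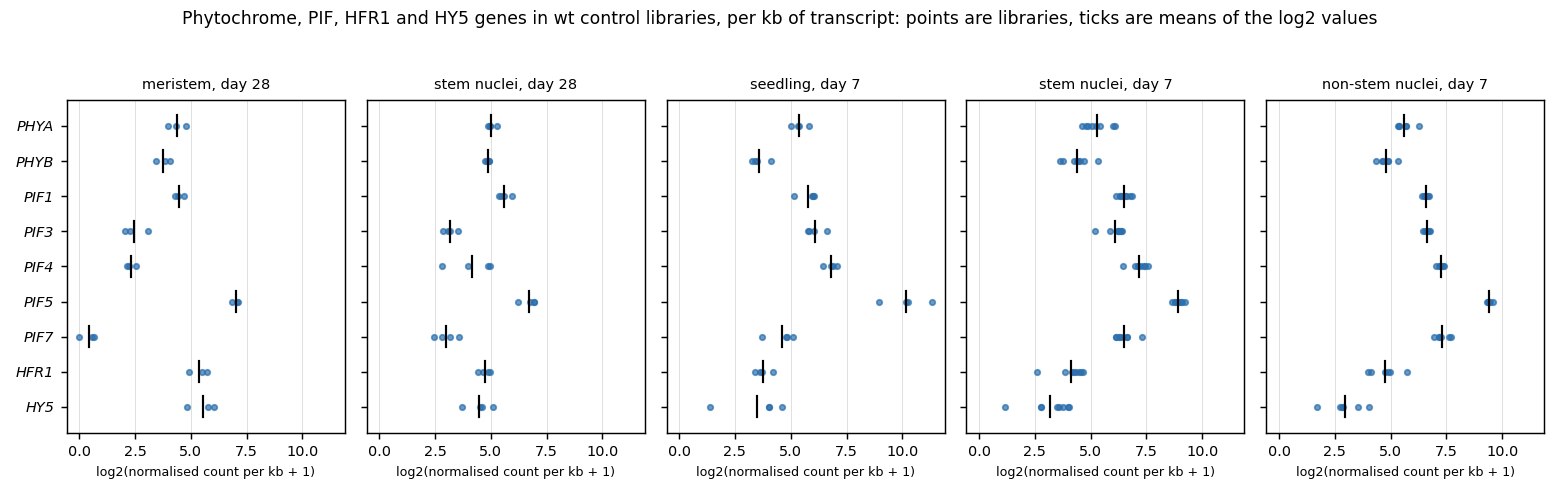
Levels of the 9 genes in wt control libraries as log2(normalised count per kb of transcript + 1), 1 panel per sample type, with a point per library and a tick at the mean. PIF5 is furthest right in every panel, and PIF7 is furthest left in both day-28 panels.

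After 1 day of heat, transcripts of PIF4, PIF5 and HFR1 were lower in all 7 comparisons made at day 7, PIF1 and PIF3 in 6 of 7, PHYA in 3, PIF7 in 2 and PHYB in 1. Rises were called for PIF7 in wt and poliv seedlings and for HY5 in non-stem nuclei, and for no other of the 9 at day 7. In stem nuclei, 6 of 9 fell in wt against 23.7% of all features tested, 7 of 9 in poliv against 22.7% and 6 of 9 in ddm1 against 23%. In non-stem nuclei 6 of 9 fell against 24.4%, and 1 rose against 16%. In seedlings 5 of 9 fell in wt against 27.4%, 4 of 9 in poliv against 27.1% and 5 of 9 in ddm1 against 27.9%, while 1 rose in wt against 20.3% and 1 in poliv against 22%. In bulk samples fewer cells of a type and less RNA per cell cannot be told apart.

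PIF4, the bHLH activator best known for growth in warmth, showed the largest drop of the 9 in each comparison but those of poliv seedlings, where PIF5 dropped further. In wt HS7 it was at 0 in 7 of 8 libraries and at 1.44 in the other, against 205, 341 and 439 (lowest, median and highest of 8) in wt CS7. It was at 0 in 5 of 8 poliv HS7 libraries and reached 10.2 and 17.1 in the highest, against 152 to 362 with a median of 259 in poliv CS7. All 8 ddm1 HS7 libraries were at 0, against 329 to 441 with a median of 376 in ddm1 CS7. No heat-stressed library came near any control library in the 3 genotypes. The wt HS7 libraries held 2 PIF4 reads in all, a ratio of control to heat of 2392 with a 95% counting interval of 662 to 19753. In ddm1 the level was at least 1119.6-fold lower in HS7, taking 3 reads over the 7 libraries with recovered reads as the floor, and the interval and floor cover counting error only. Fitted log2 fold changes were -8.24 ± 0.52 (SE; limma adjusted p = 8.33e-14) in wt, -6.93 ± 0.66 (1.13e-09) in poliv and -8.57 ± 0.50 (8.12e-15) in ddm1, of which the wt and ddm1 values depend on the added 1.

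Some PIF4 transcript remained outside the stem nuclei too, as it did in poliv HS7. Non-stem nuclei had 0, 6.27 and 23.7 (lowest, median, highest of 6) in wt HN7 against 308, 352 and 392 in wt CN7, with 2 heat-stressed libraries at 0 (log2 fold change -6.25 ± 0.76, limma adjusted p = 6.29e-06). Seedlings of wt had 11, 9.26, 1.36 and 10.8 in HT7, against 310.0, 279.9, 262 and 201 in CT7. Those of poliv had 11, 12.6, 16.7 and 7.51 in HT7 against 461, 286 and 265 in CT7, and those of ddm1 had 4.27, 4.32, 5.55 and 4.07 in HT7 against 295, 523, 352 and 362 in CT7. Every heat-stressed seedling library kept some reads, and every one lay below every control. The seedling fold changes were -5.09 ± 0.47 in wt (limma adjusted p = 3.59e-06), -4.71 ± 0.33 in poliv (5.70e-07) and -6.09 ± 0.26 in ddm1 (1.09e-09).

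PIF5, a close relative of PIF4, was the most abundant of the 9 and also dropped in all 7 comparisons, by less than PIF4 in wt and ddm1 stem nuclei. It had 0, 21 and 80.8 (lowest, median, highest) in wt HS7 against 904, 1115 and 1359 in wt CS7. In poliv these were 0, 5.98 and 103 in HS7 against 805, 994 and 1216 in CS7, and in ddm1 17.3, 33.9 and 91.8 in HS7 against 899, 1053 and 1346 in CS7. The groups were far apart in each genotype. Fold changes were -5.98 ± 0.76 (limma adjusted p = 1.50e-05) in wt, -6.87 ± 0.72 (6.00e-07) in poliv and -4.90 ± 0.24 (1.19e-16) in ddm1. In wt non-stem nuclei PIF5 had 28.2 to 123 in HN7 and 1439 to 1760.3 in CN7 (-4.43 ± 0.27, 3.08e-10).

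Seedlings of wt had 114, 132, 59.2 and 44.7 PIF5 counts in HT7 against 5873, 2589.6, 1120.1 and 2752 in CT7, a wide control spread that the heat-stressed libraries still did not reach. Those of poliv had 53.6 to 70.4 in HT7 and 1461 to 3119 in CT7, and those of ddm1 63.8 to 133 in HT7 and 1740.1 to 4195 in CT7. The 3 fold changes lay close together, at -5.02 ± 0.51 (limma adjusted p = 2.38e-05) in wt, -5.10 ± 0.29 (1.15e-07) in poliv and -4.87 ± 0.30 (2.46e-08) in ddm1. Calls for PIF4 and PIF5 held in all 7 comparisons under every alternative run.

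**Figure D2:**
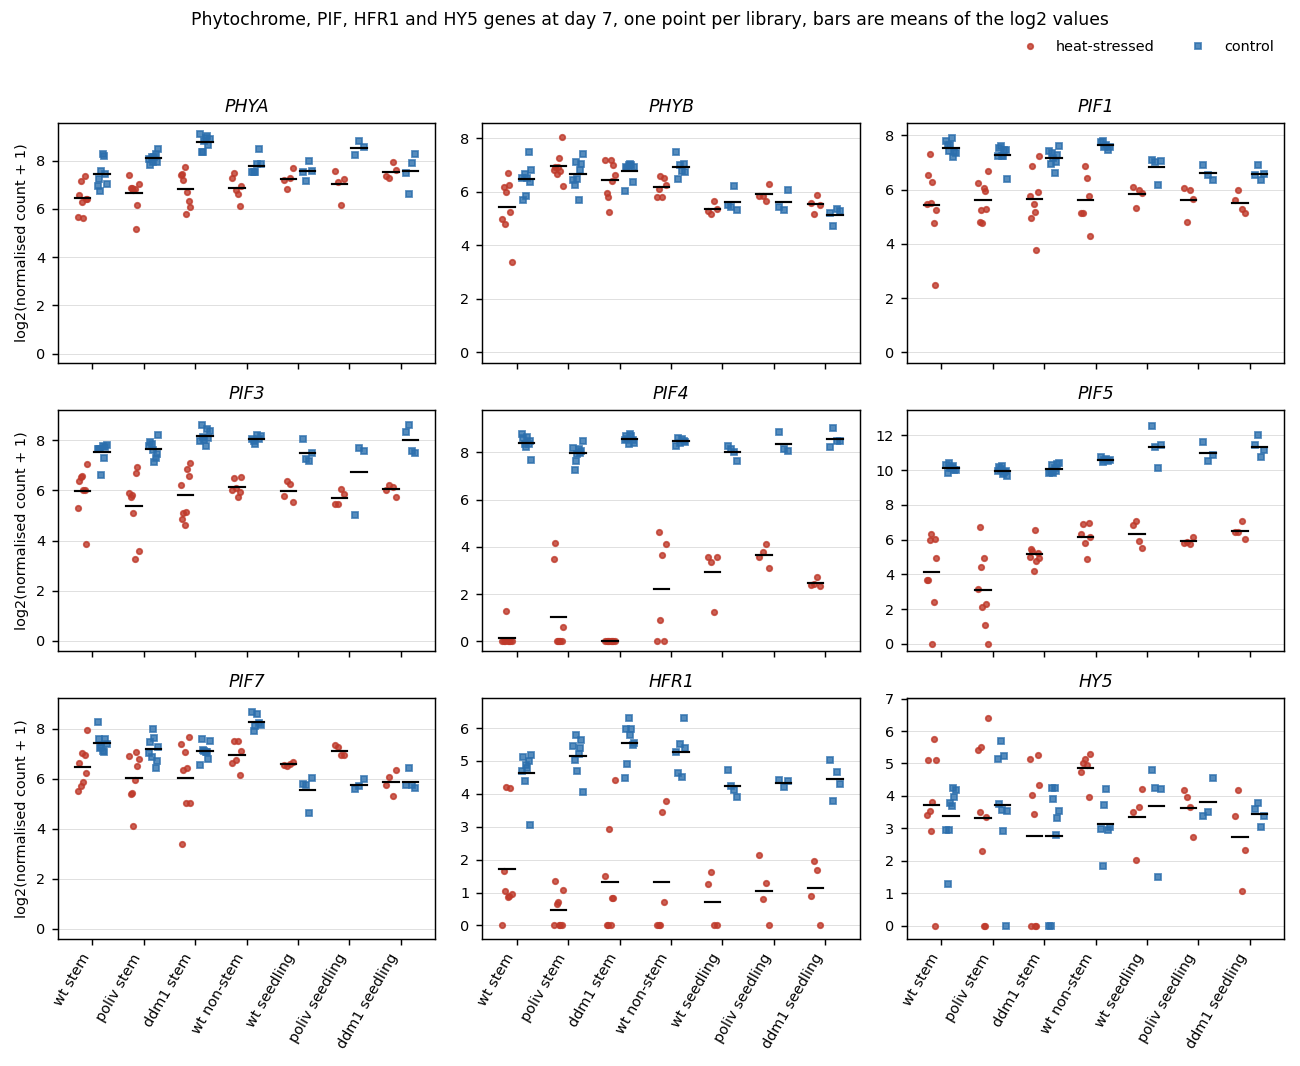
Each of the 9 genes at day 7 as log2(normalised count + 1), with a point per library, heat-stressed left of control within each sample type and bars at the means. PIF4 and PIF5 separate fully in every pair, with PIF4 at 0 in 7 of 8 wt HS7 libraries and in all 8 ddm1 HS7 libraries, whereas HY5 overlaps in all 7.

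HFR1, which restrains PIFs, fell with them. It had 0, 1 and 17.3 (lowest, median, highest) in wt HS7 against 7.37, 27.3 and 35.3 in wt CS7, with 2 heat-stressed libraries above the lowest control. In poliv it had 0, 0.291 and 1.56 in HS7 against 15.8, 38.6 and 54.5 in CS7, and in ddm1 0, 0.799 and 20.5 in HS7 against 21.3, 49.9 and 77.7 in CS7, with no overlap in either mutant. Fold changes were -2.91 ± 0.71 (limma adjusted p = 0.00143), -4.68 ± 0.61 (4.59e-07) and -4.24 ± 0.70 (1.45e-05) in wt, poliv and ddm1. The wt call did not hold with edgeR on recovered reads, where the fold change was -2.20 and the adjusted p 0.067.

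HFR1 was also near 0 outside stem nuclei. In non-stem nuclei it had 0 to 12.7 in wt HN7 and 21.8 to 77.3 in wt CN7 (-3.95 ± 0.74, limma adjusted p = 8.45e-05). Wt seedlings had 1.38, 2.06, 0 and 0 in HT7 against 25.2, 17.9, 16.4 and 14.1 in CT7 (-3.53 ± 0.57, 0.000206). Seedlings of poliv had at most 3.44 in HT7 and at least 17.6 in CT7 (-3.28 ± 0.62, 0.000929), and those of ddm1 at most 2.88 in HT7 and at least 12.9 in CT7 (-3.32 ± 0.57, 0.000245). Heat and control seedlings did not overlap in any genotype.

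PIF1 and PIF3 act mainly in seed germination and in seedlings kept in the dark, and their falls were smaller. PIF1 had 4.58, 44.1 and 157 (lowest, median, highest) in wt HS7 against 145, 185 and 239 in wt CS7, 26.3, 49.6 and 101 in poliv HS7 against 84, 164 and 194 in poliv CS7, and 12.8, 48.3 and 150.1 in ddm1 HS7 against 97.5, 149 and 193 in ddm1 CS7. The ranges overlapped in wt and ddm1 through the highest heat-stressed libraries. In poliv they overlapped only through a low control, poliv CS7 replicate 8 at 84, with the other controls at 149.5 to 194. Fold changes were -2.09 ± 0.43 (limma adjusted p = 0.000278), -1.65 ± 0.32 (0.000142) and -1.53 ± 0.37 (0.00132) in wt, poliv and ddm1. With edgeR on recovered reads the ddm1 call was lost (-0.96, adjusted p = 0.0503).

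Non-stem nuclei had 18.4 to 117 PIF1 counts in wt HN7 and 176 to 220.2 in wt CN7, with no overlap (-2.03 ± 0.32, limma adjusted p = 9.54e-06). Wt seedlings had 68.2, 39.1, 61.9 and 58.2 in HT7 against 70.9 to 135 in CT7, with no overlap (-1.01 ± 0.27, 0.00712), a difference that only just passed the fold threshold. That call was lost in 8 of 15 alternatives, among them edgeR (-0.73) and DESeq2 (-0.80), and with equal nuclear gene sums the value was 0.11. The others were a pseudocount of 5 (-0.96), leaving out wt HT7 replicate 2 (-0.84) and leaving out wt CT7 replicate 1, 2 or 4 (-0.92, -0.95 and -0.93). The ddm1 seedlings behaved likewise, with a mean of 45.7 ± 12.9 in HT7 and 96.9 ± 16.5 in CT7 (-1.09 ± 0.26, 0.00247), a call lost with edgeR (-0.88), DESeq2 (-0.92) and equal sums (-0.08), and without ddm1 HT7 replicate 4 (-0.96) or ddm1 CT7 replicate 2 (-0.99). In poliv seedlings PIF1 averaged 51.2 ± 17.7 in HT7 and 97.3 ± 20.2 in CT7 and was not called (-0.97 ± 0.34, 0.0289), but it passed without poliv HT7 replicate 1 or 3 (-1.11 and -1.10) or poliv CT7 replicate 4 (-1.09). The strand setting of the counting is not given in the sources used here, and PIF1 shares 334 bases with AT2G20170 on the other strand, whose group means were 0 to 1.25 at day 7, so reads in the shared stretch cannot be told apart.

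PIF3 had 13.7, 73.2 and 130.2 (lowest, median, highest) in wt HS7 against 96.3, 199 and 224 in wt CS7, where a single control library, at 96.3, lay within the heat-stressed range. It had 8.52, 53.8 and 119.9 in poliv HS7 against 141, 208 and 297 in poliv CS7, and 23.8, 54.2 and 136 in ddm1 HS7 against 220.4, 275 and 395 in ddm1 CS7, apart in both. Fold changes were -1.55 ± 0.34 (limma adjusted p = 0.00048), -2.29 ± 0.42 (7.29e-05) and -2.37 ± 0.32 (5.79e-07) in wt, poliv and ddm1. Non-stem nuclei had 52.8 to 92.5 in wt HN7 and 233 to 296 in wt CN7 (-1.91 ± 0.20, 1.12e-08).

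In seedlings PIF3 had 53.7, 82.3, 75.6 and 46 in wt HT7 against 263, 152, 144 and 178 in wt CT7 (-1.50 ± 0.26, limma adjusted p = 0.0004), and 53 to 74.2 in ddm1 HT7 against 180.4 to 386 in ddm1 CT7 (-1.96 ± 0.27, 3.93e-05). Both calls were lost with equal nuclear gene sums, at -0.38 and -0.94. In poliv it had 42.6, 43, 65.2 and 57.3 in HT7 against 31.1, 205 and 189 in CT7, so that 1 control library lay below all heat-stressed ones and no call was made (-1.05 ± 0.60, 0.169). Without that library, poliv CT7 replicate 1, the fold change was -1.92 and the adjusted p 0.000483, and DESeq2 with it gave -1.28 and 0.0324.

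PIF7, which takes part in shade and warmth responses, was called lower in some nuclei and higher in some seedlings, the only one of the 9 called in both directions, although nuclei and seedlings were not tested against each other. In nuclei it fell in wt HN7, with 70.6, 122 and 183 (lowest, median, highest) against 239, 291 and 405 in wt CN7 (-1.33 ± 0.22, limma adjusted p = 1.51e-05), and no library overlapped. It fell in poliv HS7, with 16.4, 76 and 133 against 85.3, 141 and 253 in poliv CS7 (-1.15 ± 0.37, 0.0137), a call lost with edgeR (-0.92), DESeq2 (-0.97) and equal sums (-0.70). In wt stem nuclei it averaged 103 ± 65.9 in HS7 and 178 ± 57.1 in CS7 (-0.95 ± 0.30, 0.0112), and in ddm1 93.1 ± 70.2 in HS7 and 140.2 ± 33.1 in CS7 (-1.06 ± 0.45, 0.0596), neither called. Both heat-stressed groups overlapped their controls widely.

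In seedlings PIF7 rose to 93, 90.6, 96 and 102 in wt HT7, against 54.1, 52.4, 23.6 and 65.1 in wt CT7 (1.04 ± 0.30, limma adjusted p = 0.0095). It also rose to 160.1, 154, 123 and 121 in poliv HT7, against 46.7, 50.8 and 62.4 in poliv CT7 (1.37 ± 0.25, 0.000635). Heat and control libraries were apart in both. The wt rise rested on wt CT7 replicate 3, at 23.6, without which it was 0.73, and it was 0.97 with a pseudocount of 5. In ddm1 the level was 52.9, 65.5, 38.8 and 80.1 in HT7 against 52.4, 84, 52.1 and 48.5 in CT7 (-0.01 ± 0.29, 95% interval -0.63 to 0.60), but 1.00 with equal nuclear gene sums, where the call was gained. The difference between ddm1 and wt in the seedling response was -1.05 ± 0.42 and did not pass over all features (limma adjusted p = 0.291). PIF7 shares 318 bases with AT5G61260 on the other strand, whose group means were 0.17 to 2.02 in seedlings and 2.12 to 19 in nuclei at day 7. At day 28 they exceeded those of PIF7 itself in wt, at 74.4 against 14.4 for PIF7 in CS28 and 10.5 against 0.699 in CI28, so PIF7 levels there are uncertain.

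**Figure D3:**
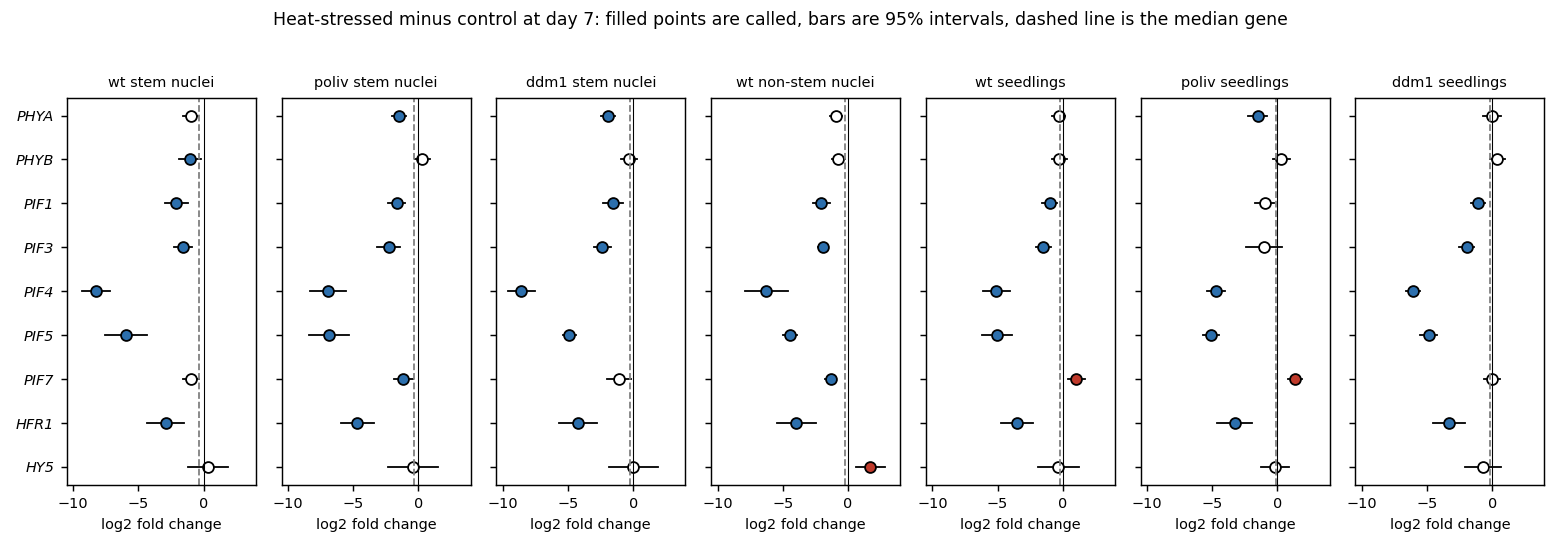
Log2 fold change of heat-stressed minus control at day 7 for the 9 genes in each sample type and genotype, with 95% intervals from limma and a dashed line at the median nuclear gene. Filled points are called, blue lower and red higher, and PIF4, PIF5 and HFR1 are blue in all 7 panels, while PIF7 is red only in wt and poliv seedlings.

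The photoreceptor genes were called in fewer comparisons, PHYA in 3 and PHYB in 1 of 7. PHYA, the far-red receptor, had 34.9, 114 and 168 (lowest, median, highest) in poliv HS7 against 222, 275 and 359 in poliv CS7 (-1.46 ± 0.26, limma adjusted p = 4.42e-05), and 53.5, 125 and 210.4 in ddm1 HS7 against 324, 460.1 and 541 in ddm1 CS7 (-1.93 ± 0.25, 2.01e-07). Both sets of libraries were apart. In wt stem nuclei it had 48.3, 84.5 and 165 in HS7 against 107, 161 and 306 in CS7, with overlap, and at -1.0 ± 0.29 (0.00649) it fell just short of the fold threshold, which it passed with a pseudocount of 0.5. In non-stem nuclei it averaged 122 ± 40.3 in wt HN7 and 227 ± 65.2 in wt CN7 (-0.92 ± 0.23, 0.00167, not called).

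Seedlings of poliv had 188, 138, 70.3 and 148 PHYA counts in HT7 against 302, 445 and 380.0 in CT7 (-1.52 ± 0.33, limma adjusted p = 0.00221), a call lost with equal sums (-0.65). In wt seedlings it averaged 154 ± 37.6 in HT7 and 192 ± 45.3 in CT7 (-0.31 ± 0.24, 0.283) and in ddm1 188 ± 41.7 in HT7 and 205 ± 88.7 in CT7 (-0.03 ± 0.32, 0.944). The difference of the poliv response from that of wt was -1.21 ± 0.41 and did not pass (0.394).

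PHYB, the main red-light and warmth receptor, was called only in wt stem nuclei. It had 9.5, 49.3 and 104 (lowest, median, highest) in wt HS7 against 51.3, 90.9 and 178 in wt CS7 (-1.05 ± 0.41, limma adjusted p = 0.0383). These ranges overlapped, and the call held in 2 of 7 alternatives, with -0.72 by edgeR and -0.79 by DESeq2. It was not called in poliv stem nuclei, at 133 ± 58.5 in HS7 and 107 ± 38 in CS7 (0.30 ± 0.29), nor in ddm1 stem nuclei, at 94.3 ± 42.6 in HS7 and 112 ± 25 in CS7 (-0.35 ± 0.30). In seedlings its fold changes were -0.25 ± 0.27, 0.30 ± 0.29 and 0.39 ± 0.27 in wt, poliv and ddm1, of which poliv and ddm1 were called higher only with equal sums, at 1.16 and 1.40.

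HY5 was scarce at day 7 and spread widely. It had 14.6, 30.8 and 38.1 (lowest, median, highest) in wt HN7 against 2.57, 7.1 and 17.7 in wt CN7, where 1 heat-stressed library lay within the control range (1.73 ± 0.55, limma adjusted p = 0.0107, a call that held in 7 of 7 alternatives). In stem nuclei it ran from 0 to 53.5 in wt HS7 and from 1.46 to 17.9 in wt CS7 (0.32 ± 0.75, 0.756), and the poliv and ddm1 values were -0.41 ± 0.94 and 0.02 ± 0.93. Heat and control libraries overlapped throughout. Seedling fold changes were -0.34 ± 0.72, -0.18 ± 0.50 and -0.71 ± 0.63 in wt, poliv and ddm1, with group means of 7.96 to 12.3 in heat-stressed and 10.2 to 16.1 in control seedlings.

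Responses of the 9 genes were compared between genotypes and between stem and non-stem nuclei through interaction terms. None of 9 passed in limma in any of the 5 tests, against 0.233% of features called for poliv and 7.09% for ddm1 in stem nuclei, 0.0515% for poliv and 2.65% for ddm1 in seedlings, and 0.275% between stem and non-stem nuclei. Among nuclear genes alone the ddm1 shares were 2.48% higher and 2.66% lower in stem nuclei, and 0.317% and 0.264% in seedlings. At an unadjusted p below 0.05 there were 2 of 9 for poliv stem nuclei (PHYB and HFR1) and 1 of 9 in each other test. PIF4 was the exception by count models: its drop was larger in stem than in non-stem nuclei by -1.99 ± 0.81 in limma (adjusted p = 0.428), but by -5.18 (0.0122) in edgeR and -5.51 (0.00131) in DESeq2, and DESeq2 also called it for poliv stem nuclei, at 4.71 (0.0299). In ddm1 seedlings its difference from wt was -1.0 ± 0.56 (0.509), and it passed at -1.56 (0.00993) without wt HT7 replicate 3. These are groups with 2 PIF4 reads in wt HS7, 48 in poliv HS7 and 85 in wt HN7. A direct test of wt HS7 against wt HN7 left PIF4 below the level filter, and its ratio of non-stem to stem was 60.9 with a counting interval of 16.9 to 503. That interval covers counting error in wt HS7 only, not the spread of the wt HN7 libraries, which ran from 0 to 23.7.

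Some marker sums of differentiated cells moved with heat too. In stem nuclei the sum of 4 mesophyll genes was 3858 to 5273 in wt HS7 and 37577 to 52651 in wt CS7, and the sum of 3 vascular genes was 19.1 to 106 in wt HS7 and 118 to 341 in wt CS7, with 4 of 4 and 1 of 3 above 0 in every heat-stressed library. The sum of 4 epidermis genes overlapped there, at 406 to 1388 in wt HS7 and 429 to 953 in wt CS7. In ddm1 stem nuclei the vascular sum overlapped, at 207 to 495 in HS7 and 270.0 to 553 in CS7. The ddm1 epidermis sum was 19.7 to 327 in HS7 and 314 to 589.5 in CS7. In seedlings the mesophyll sum was 280051 to 501481 in wt HT7 and 1697334 to 2984928 in wt CT7, and the epidermis sum 473 to 2404 in wt HT7 and 14223 to 24791 in wt CT7. The sum of 3 stem cell genes was 769 to 1179.9 in wt HS7 and 206 to 513 in wt CS7. In ddm1 it was 168 to 504 in HS7 and 19.9 to 98.6 in CS7, against 14.6 to 26.7 in wt CN7. The ddm1 mesophyll sum was 3628 to 6622 in HS7 and 90404 to 128510.4 in CS7, against 64384 to 87391 in wt CN7. Control nuclei sorted as stem cells thus differed in these markers between ddm1 and wt. The part of these shifts in the falls of the PIF genes and in the ddm1 interactions was not tested.

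Other light-signalling genes were counted from 6 lists of 51 genes in all, against 22.7% to 27.9% of all features called lower and 12.1% to 22.7% called higher in the 7 comparisons. Of 11 growth genes that PIFs activate, 5 of 10 tested fell in wt stem nuclei, against 23.7% of features, and 6 of 7 in wt seedlings, against 27.4%. Over the 7 comparisons, with 7 to 11 tested, 5 to 8 fell and 0 rose, with list medians of -3.98 to -1.97. XTR7, a xyloglucan-modifying enzyme, averaged 14.1 in wt HT7 and 602 in wt CT7 (-4.81 ± 0.84, limma adjusted p = 0.00146), and IAA29, an auxin-response repressor, 3.23 in wt HS7 and 72.9 in wt CS7 (-4.75 ± 0.69, 1.71e-06). Of 6 other PIF-like bHLH genes, 4 to 6 of them tested, 3 to 5 fell and 0 or 1 rose. PIF8 averaged 14.3 in wt HT7 and 334 in wt CT7 (-4.50 ± 0.27, 5.89e-08), and PAR1, another inhibitor of PIFs, 20.3 in wt HT7 and 329 in wt CT7 (-4.00 ± 0.57, 0.000212).

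Genes of the evening complex, which represses PIF4 and PIF5 transcription at night, were called higher but not lower. Of the 3, 1 to 3 were higher and 0 lower in the 7 comparisons. Its gene ELF3 averaged 183 in wt HS7 and 226 in wt CS7, and 173 in wt HN7 and 231 in wt CN7. Thus not every gene of the complex rose in nuclei, and any part of it in the PIF falls was not tested. LUX averaged 90.7 in wt HS7 and 38.2 in wt CS7 (1.26 ± 0.42, limma adjusted p = 0.0164), and 311 in wt HT7 and 21.5 in wt CT7 (3.79 ± 0.22, 3.64e-08). ELF4 averaged 135 in wt HT7 and 1.03 in wt CT7 (6.48 ± 0.54, 7.85e-07), and 26.7 in wt HS7 with all wt CS7 libraries at 0. Of 8 other photoreceptors 3 to 5 fell and 0 or 1 rose, with list medians of -1.74 to -0.44, among the lower ones the blue-light receptor PHOT1 with 35.2 in wt HT7 and 293 in wt CT7 (-3.22 ± 0.52, 0.000471). Of 19 COP1/SPA and light-signalling components, 18 or 19 of them tested, 5 to 9 fell and 0 to 5 rose, with list medians of -1.12 to -0.63. The low ends of both ranges, 3 of 8 and 5 of 18, and the 5 of 19 that rose in ddm1 seedlings are near the shares of all features. Of 7 genes that HY5 activates, 3 of which are also among those components, 5 to 7 were tested. Of these 2 to 6 fell and 0 rose, with list medians of -2.95 to -0.67, and the low end of 2 is near the share of all features. ELIP2, a light-stress protein of the chloroplast, was at 6.32 in wt HT7 and 1422 in wt CT7 (-7.44 ± 0.57, 3.52e-06). The lists were chosen with earlier results of these data known.

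After 21 days of recovery none of the 9 was called lower in any genotype. None was called in stem nuclei of wt, poliv or ddm1, where 0%, 0.0541% and 0.23% of all features were, and none at an unadjusted p below 0.05 or with edgeR or DESeq2. PIF4 had 25.6, 21.5, 23.8 and 27.7 in wt HS28 against 13.9, 34.8, 65.9 and 70.8 in wt CS28, 13.5, 43.3, 31.5 and 61 in poliv HS28 against 30.7, 35.2, 59.7 and 14.8 in poliv CS28, and 36.5, 41.9 and 48.2 in ddm1 HS28 against 14.7, 30.2, 29.2 and 33.4 in ddm1 CS28. The fold changes were -0.65 ± 0.47, 0.06 ± 0.50 and 0.68 ± 0.36, with overlap in wt and poliv and none in ddm1. PIF5 averaged 263 ± 70.8 in wt HS28 and 241 ± 50.6 in wt CS28 (0.12 ± 0.22), and HFR1 49.1 ± 12.5 in wt HS28 and 37.9 ± 6.29 in wt CS28 (0.34 ± 0.33).

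In meristems 8 of the 9 were tested, since PIF7 was below the level filter. None was called in wt, where 0% of features were (197 of 17966 with a replicate block, none of them a member), 1 in poliv against 1.09% and none in ddm1 against 0.762%. At an unadjusted p below 0.05 there were 0 of 8 in wt, 3 of 8 in poliv (PIF1, PIF4 and HY5) and 2 of 8 in ddm1 (PIF1 and HY5), and edgeR and DESeq2 called none in wt or ddm1. PIF1 had 21.5, 38.1 and 23.7 in ddm1 HI28 against 59.3, 65.8, 43.2 and 39.9 in ddm1 CI28, without overlap (-0.90 ± 0.29, limma adjusted p = 0.197), and averaged 40.7 in poliv HI28 and 60.1 in poliv CI28 (-0.53 ± 0.22, 0.273). PIF4 averaged 7.49 in poliv HI28 and 14.3 in poliv CI28 (-0.86 ± 0.37, 0.302), and neither passed over all features. The 1 call was HY5 in poliv, with 54.8, 69.7, 57.5 and 63.8 in poliv HI28 against 32, 32.5, 14.2 and 27 in poliv CI28, all heat-stressed libraries above all controls (1.25 ± 0.25, limma adjusted p = 0.0246). The call was lost without poliv HI28 replicate 2, 3 or 4 (adjusted p 0.0575, 0.0749 and 0.0763) and without poliv CI28 replicate 3, where the fold change was 0.99. In ddm1 HY5 had 101, 98.3 and 47.4 in HI28 against 33.9, 31.3, 32.4 and 26.6 in CI28, again apart, but at 1.3 ± 0.28 the adjusted p was 0.0521. It passed at 0.0434 with a pseudocount of 5 and at 0.0144 with no filter, and at 1.66 (0.0129) without ddm1 HI28 replicate 3. Wt libraries had 90.4, 93.9, 37.8 and 43.2 in HI28 and 74.8, 61.7 and 31.5 in CI28, with no separation (0.21 ± 0.40, 0.958).

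Of the 7 genes that HY5 activates, 3 were higher in poliv meristems after heat, against 0.881% of all features. In ddm1 1 was higher, against 0.704%. In wt 0 were, where 0% of features were called, so that count says nothing about these genes. The genes are named here after their values were seen. HYH, the HY5 homologue, averaged 133 in poliv HI28 and 41.3 in poliv CI28 (1.63 ± 0.21, limma adjusted p = 0.00189), and 213 in ddm1 HI28 and 63.1 in ddm1 CI28 (1.75 ± 0.24, 0.00571). ELIP1 averaged 1475 in poliv HI28 and 226 in poliv CI28 (2.95 ± 0.46, 0.0258), and ELIP2 257 in poliv HI28 and 102 in poliv CI28 (1.39 ± 0.23, 0.00922). The heat responses of poliv and ddm1 meristems were not tested against that of wt. The remaining members showed no call, although PIF7 held only 2 reads in wt CI28 and averaged 5.89 in wt HI28, a ratio of 7.4 with a counting interval of 2.05 to 61.1.

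**Figure D4:**
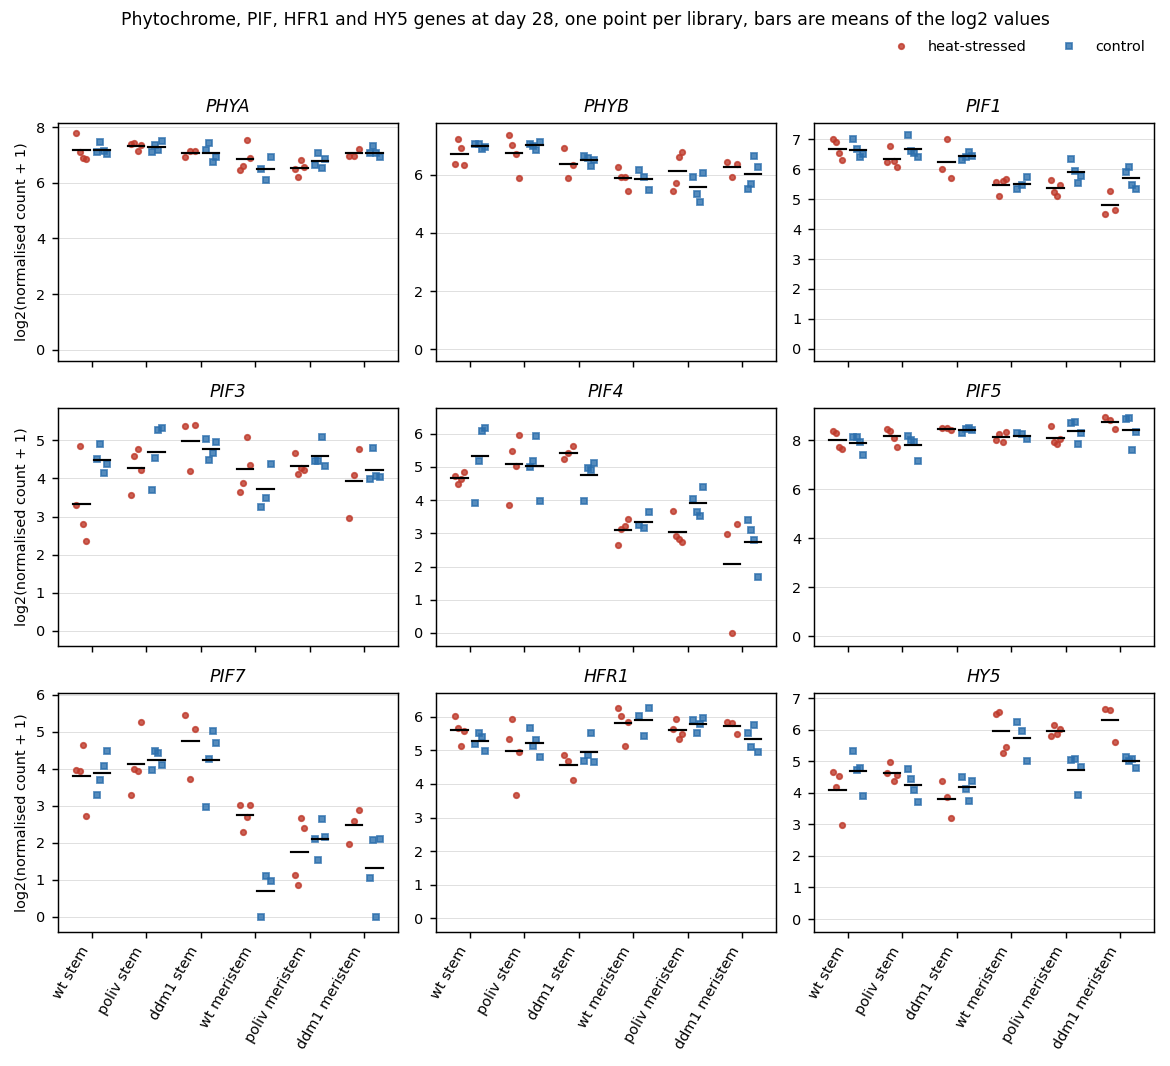
Each of the 9 genes at day 28 as log2(normalised count + 1), with a point per library, heat-stressed left of control and bars at the means, for stem nuclei and meristems of the 3 genotypes. Heat and control points mix in most panels, while HY5 is separate in poliv meristems (54.8 to 69.7 against 14.2 to 32.5) and ddm1 meristems (47.4 to 101 against 26.6 to 33.9).

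Between genotypes without heat, PHYA in stem nuclei at day 7 was the 1 call. It had 324, 460.1 and 541 (lowest, median, highest) in ddm1 CS7 against 107, 161 and 306 in wt CS7, with no overlap (1.33 ± 0.19, limma adjusted p = 1.91e-06), and 0.96 with equal sums, below the fold threshold. Marker sums differed between these groups too: the stem cell sum was 19.9 to 98.6 in ddm1 CS7 and 206 to 513 in wt CS7, and the mesophyll sum 90404 to 128510.4 in ddm1 CS7 and 37577 to 52651 in wt CS7, and their part in the PHYA call was not tested. Thus 1 of 9 was called in ddm1 CS7, against 17.7% of features, and 0 of 9 in poliv CS7, against 0.981%, where 2 of 9 had an unadjusted p below 0.05 and edgeR and DESeq2 called none. No member was called in seedlings (0.159% of features in poliv and 6.68% in ddm1), in stem nuclei at day 28 (0.404% and 14.3%) or in meristems (0.164% and 10.3%), and edgeR and DESeq2 called none there either. At an unadjusted p below 0.05 there were 0 to 2 members in each of these. Features include transposable elements, and the ddm1 shares called higher were smaller among nuclear genes alone. They were 4.92% in CS7, 1.01% in CT7, 2.59% in CS28 and 1.3% in CI28. The shares of nuclear genes called lower were 5.07%, 0.373%, 5.27% and 2.75%. PHYA averaged 276 ± 42.7 in poliv CS7 and 184 ± 76.3 in wt CS7 (0.67 ± 0.19, 0.0481), below the fold threshold. ddm1 CS28 against wt CS28 gained PIF4, at -1.06, without wt CS28 replicate 1, and ddm1 CI28 against wt CI28 gained HY5, at -1.11, without wt CI28 replicate 4.

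Between stem and non-stem nuclei of wt, none of 9 was called in controls, against 2.49% of features, and none of the 7 tested after heat, against 1.38%, and edgeR and DESeq2 called none. In controls 3 of 9 were at an unadjusted p below 0.05, and 1 of 7 after heat. PIF5 averaged 1121 ± 147 in CS7 and 1556 ± 111 in CN7 (-0.48 ± 0.09, limma adjusted p = 0.000413), PIF7 178 ± 57.1 in CS7 and 315 ± 65.1 in CN7 (-0.84 ± 0.18, 0.00154) and PIF3 188 ± 42.5 in CS7 and 266 ± 22.6 in CN7 (-0.54 ± 0.17, 0.049). Each was lower in stem nuclei by less than the fold threshold. The stem cell sum was 206 to 513 in wt CS7 and 14.6 to 26.7 in wt CN7. The mesophyll sum was 37577 to 52651 in wt CS7 and 64384 to 87391 in wt CN7. How far mesophyll signal in the sorted stem nuclei narrows differences of the 9 genes was not tested. After heat PIF5 averaged 33.3 in HS7 and 79 in HN7 with overlapping libraries, and at -2.03 ± 0.74 it did not pass over all features (0.155), while PIF4, with the ratio given above, was below the level filter.

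Control wt meristems at day 28 and control wt seedlings at day 7 differed in 8 of 9 genes. Lower in meristems were 6 of 9, against 15.8% of features, and higher 2 of 9, against 15.5%. PIF4 had 8.5, 8 and 11.4 in CI28 against 310.0, 279.9, 262 and 201 in CT7 (-4.68 ± 0.24, limma adjusted p = 1.48e-07), and PIF7 had 0, 1.14 and 0.954 against 54.1, 52.4, 23.6 and 65.1 (-4.86 ± 0.52, 3.68e-05). CI28 held 2 PIF7 reads in all, so the PIF7 value depends on the added 1, and it ran from -6.03 to -3.17 over the alternatives. The ratio of CT7 to CI28 was 61.3, with a counting interval of 17 to 506. PIF7 levels in CI28 are also uncertain because of AT5G61260 on the other strand. PIF3 was at 12.9 ± 6.21 in CI28 and 184 ± 54.7 in CT7 (-3.78 ± 0.33, 8.27e-06), PIF5 at 291 ± 26 in CI28 and 3084 ± 1999 in CT7 (-3.17 ± 0.46, 0.000584), PIF1 at 45 ± 6.83 in CI28 and 117 ± 30.6 in CT7 (-1.32 ± 0.27, 0.0029) and PHYA at 92 ± 26.6 in CI28 and 192 ± 45.3 in CT7 (-1.06 ± 0.26, 0.00739). None of these 6 overlapped between the groups.

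HFR1 went the other way, with 64.6, 42.3 and 76.3 in CI28 against 25.2, 17.9, 16.4 and 14.1 in CT7 (1.67 ± 0.33, limma adjusted p = 0.00216). HY5 had 74.8, 61.7 and 31.5 in CI28 against 27, 17.9, 1.82 and 17.6 in CT7 (2.05 ± 0.73, 0.0498), also apart, a call that held in 8 of 14 alternatives and was lost without wt CI28 replicate 1, 2 or 4 or wt CT7 replicate 2 or 4. PHYA was lost in 4 of 14, with equal sums (-0.16), without wt CI28 replicate 2 (-0.86), without wt CT7 replicate 3 (-0.92) and with a replicate block (-0.92). PIF1 was lost with equal sums (-0.42), where PHYB, at 0.23 ± 0.29 otherwise, was called higher at 1.12. Of the light-signalling lists, 4 of 9 tested growth genes that PIFs activate, 3 of 8 other photoreceptors, 1 of 4 other PIF-like genes, 2 of 19 COP1/SPA and light-signalling components, 1 of 7 genes that HY5 activates and 0 of 2 evening complex genes were lower in CI28, against the 15.8% given above. Higher were 1 each of the first 4 lists, 2 of those that HY5 activates and 1 of the evening complex, against 15.5%. Tissue and age cannot be told apart in this pair.

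Across the 26 group means, PIF4 ran most closely with PIF5 (Pearson r = 0.88) and PIF1 (0.87) among the 9, PIF3 with PIF7 (0.82), and PIF7 opposite to HY5 (-0.81). Among 19452 genes compared, those nearest to PIF4 were AT2G29290 (r = 0.96) and GLK2, a regulator of chloroplast genes (0.95), and those nearest to PIF5 were SNG1 and ACL (0.96 each). HY5 was nearest to 4CL3 (0.93) and FLS1 (0.89), both of phenylpropanoid and flavonoid synthesis, and PIF7 to FBH4 (0.97). PHYA, the least matched, had PIN4 and DREB26 at 0.84. The 26 points share sample types, normalisation and the heat contrast, and these values are a description of pattern only.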

How the data were processed

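RNA-seq of Arabidopsis thaliana was read from 1 table with 26 groups of libraries. The deposited values are a signal: read counts that the authors made on TAIR10 genes and transposable elements and divided by a DESeq2 size factor per library (build and tools as in the submitters' notes, which also name bedtools 2.27; aligner and strand setting not given in the sources used here). Values gave whole reads, within 0.1, in 125 libraries. Another 52 columns, the authors' means and SDs, were not used. The labels name SMART-Seq V2 throughout, whereas the study's methods name another version for stem nuclei at day 7, so levels between sample types may also differ by kit.

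Features with a mean of at least 5 over the libraries compared were tested with limma 3.58.1 (R 4.3.3) on log2(value + 1), which understates changes of low genes, with Benjamini-Hochberg adjustment over all features. Each comparison used its own groups. Interactions used 4 groups. Alternatives were pseudocounts of 0.5 and 5, no filter, equal nuclear gene sums, edgeR 4.0.16 and DESeq2 1.42.0 on recovered reads, a replicate block and, for groups of 3 or 4, leaving out each library. The scripts were tested on simulated data.

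The 9 genes, the lists and the tests were chosen with earlier results of these data known. Besides the 9, the text names called list genes with the largest changes (at most 2 per list and comparison) and at most 2 genes most like a member. No 2 libraries were identical. Replicate numbers paired the libraries only in wt meristems at day 28, where 3 same-numbered pairs of heat-stressed and control libraries deviated together (correlations of 0.11 to 0.17), and the replicate block changed no call for the 9 genes there, though over all features it called 197 rather than 0. Upstream windows came from the RefSeq annotation of TAIR10.1.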

Additional observations from a re-analysis of the deposited data

Results flagged for a closer look

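Among 197 sets of 4 to 8 libraries of 1 group for 1 gene, 15 had a single library set apart from the rest by Dixon's test, 13 high and 2 low. Chance gives about 1 in 20 only for normally distributed values. The test was run on untransformed counts, some of them at 0, so 15 cannot be set against that rate. In heat-stressed stem nuclei these were PIF4 at 1.44 in wt HS7 replicate 4 (others 0), PHYB at 266 in poliv HS7 replicate 7 (others 74 to 155), PIF5 at 103 in poliv HS7 replicate 2 (0 to 30.3) and at 91.8 in ddm1 HS7 replicate 5 (17.3 to 43.2), PIF7 at 246 in wt HS7 replicate 8 (lowest of the others 44.7) and HFR1 at 20.5 in ddm1 HS7 replicate 8 (0 to 6.57). In control nuclei at day 7 they were PIF7 at 309 in wt CS7 replicate 1 (135 to 192), PHYA at 352 in wt CN7 replicate 5 (182 to 231) and PIF1 at 84 in poliv CS7 replicate 8 (149.5 to 194). In seedlings they were PIF1 at 70.9 in wt CT7 replicate 3 (others up to 135), PIF7 at 84 in ddm1 CT7 replicate 2 (48.5 to 52.4) and PIF4 at 5.55 in ddm1 HT7 replicate 3 (4.07 to 4.32). In meristems they were PIF4 at 11.7 in poliv HI28 replicate 1 (5.67 to 6.56), PIF3 at 32.8 in poliv CI28 replicate 3 (19.1 to 21) and PIF3 at 27 in ddm1 CI28 replicate 2 (14.8 to 15.6).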

How the results depend on the processing

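Of 52 calls for the 9 genes, 37 held under every alternative run. The number of genes called was 1 for heat in ddm1 meristems with a pseudocount of 5 and 1 with no filter (0 otherwise, HY5 gained), 0 for ddm1 against wt CS7 with equal nuclear gene sums (1 otherwise), 1 by DESeq2 for the poliv interaction in stem nuclei and 1 by edgeR and 1 by DESeq2 for the stem and non-stem interaction (0 otherwise, PIF4 gained). Signs turned with equal nuclear gene sums for PIF1 in wt seedlings (0.11, called lower otherwise) and PIF7 in ddm1 seedlings (1.00, against -0.01). Leaving out 1 library at a time gave 5 to 6 genes called for heat in wt seedlings, 5 to 6 in poliv seedlings, 4 to 5 in ddm1 seedlings, 0 to 1 in poliv meristems, 0 to 1 in ddm1 meristems, 6 to 8 for CI28 against CT7, 0 to 1 for ddm1 against wt CS28, 0 to 1 for ddm1 against wt CI28 and 0 to 1 for the ddm1 interaction in seedlings, and 0 to 0 in the other comparisons of groups of 3 or 4. The cause of these changes was not tested. With a replicate block (outside wt meristems at day 28 the paired libraries share only a number) 1 call for the 9 genes changed, PHYA in CI28 against CT7, which was lost at -0.92, and no other call did. HFR1, HY5 and, under heat, PIF4 rest on few reads at day 7, which limits their precision.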
